A study of Mus musculus with 12 samples.

Results

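The RAS-RAF-MEK-ERK pathway genes described here are 33 genes of the 30452 listed for mouse sciatic nerve, chosen by symbol for their place in the pathway. Measured levels did not enter the rule, but the choice was made with earlier results of these data known. They comprise 5 RAS GTPases, 10 adaptors, 7 RAS exchange factors, 5 RAF kinases and scaffolds and 6 MEK, ERK and RSK kinases. Other genes of the pathway were not analysed here as members. RNA came from regenerating sciatic nerve at 14 days after injury, in 4 groups of 3 samples: Nf1 KO bridge, CTL bridge, Nf1 KO distal stump and CTL distal stump. Nf1 KO mice were P0-CreERT2:YFPfl/fl:Nf1fl/fl and CTL mice were P0-CreERT2:YFPfl/fl:Nf1+/+, so both genotypes carried the tamoxifen-inducible Cre and the floxed YFP reporter. The P0 promoter drives the recombinase in myelinating Schwann cells, whereas the RNA was that of whole fragments with all their cell types. Each sample pooled 6 fragments of 0.5 mm from several mice, and the age of the animals was not analysed here. In such bulk tissue, fewer cells of a type and less RNA per cell cannot be told apart.

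RAS proteins are membrane-bound switches that are active with GTP bound. Receptor tyrosine kinases recruit adaptors such as GRB2 and SHC, which bring exchange factors to RAS, and active RAS engages RAF kinases, which phosphorylate MEK and through it ERK. Neurofibromin, the product of Nf1, is a GTPase-activating protein that returns RAS to its inactive state. In Schwann cells, this cascade is known for its part in the response to injury, in which myelinating cells give up myelin gene expression and take on a repair state. The bridge is the new tissue that forms between the cut ends of a nerve, and the distal stump is the nerve beyond the injury.

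Nf1, the targeted gene, was lower in Nf1 KO in both regions. Its level was 42.4, 54.7 and 46.4 CPM (counts scaled to library size) in the Nf1 KO bridge, against 62.5, 67.4 and 60.1 CPM in the CTL bridge. In the distal stump it was 42.5, 43.1 and 42.3 CPM in Nf1 KO, against 69.7, 57.0 and 67.3 CPM in CTL. The groups did not overlap in either region, and the log2 fold change was −0.40 ± 0.10 (SE, adjusted p = 0.0218, edgeR quasi-likelihood test) in the bridge and −0.60 ± 0.10 (adjusted p = 0.0056) in the distal stump. The bridge call was lost without Nf1 KO bridge 1 or 3 or CTL bridge 1 or 2 (adjusted p up to 0.106), with a log2 fold change of −0.51 to −0.32 in all fits. Library totals lay between 18821445 and 38981819 counts, so that 3 counts correspond to 0.077 to 0.159 CPM.

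Levels of cell type markers also differed between the groups, and these levels do not separate cell numbers from RNA per cell. Of all genes tested, 14.6% were called by genotype in the bridge, 8.14% in the distal stump and 20.9% over both regions. A count of 1 of 8 markers, 12.5%, lies near the shares of the single regions. Schwann cell and myelin markers were present in every library, and all 11 myelin markers were lower in the Nf1 KO bridge and 9 of 11 in the Nf1 KO distal stump. Their summed level was 7370 to 9550 CPM in the Nf1 KO bridge, against 12300 to 16600 CPM in the CTL bridge, and 5680 to 7550 CPM in the Nf1 KO distal stump, against 9650 to 11200 CPM in the CTL distal stump. Of 8 Schwann cell markers, 3 were lower in the Nf1 KO bridge (994 to 1130 CPM in sum, against 1420 to 1490 CPM in the CTL bridge) and 1 in the Nf1 KO distal stump (1390 to 1640 CPM, against 1690 to 1880 CPM in the CTL distal stump). The 8 proliferation markers were higher in the Nf1 KO bridge, at 375 to 440 CPM in sum, against 207 to 245 CPM in the CTL bridge. In the distal stump 1 of 8 was called higher, and they summed to 316 to 337 CPM in Nf1 KO, against 244 to 301 CPM in CTL. Perineurial markers were lower in Nf1 KO, 6 of 7 in the bridge (544 to 592 CPM in sum, against 718 to 775 CPM in CTL) and 5 of 7 in the distal stump (458 to 511 CPM, against 611 to 663 CPM in CTL). All 8 adipocyte markers were lower in the Nf1 KO bridge (320 to 477 CPM, against 594 to 816 CPM in the CTL bridge). In the Nf1 KO distal stump 1 of 8 was lower (428 to 524 CPM, against 529 to 684 CPM in the CTL distal stump). Of 8 endothelial markers, 4 were lower in the Nf1 KO distal stump (279 to 325 CPM, against 373 to 448 CPM in the CTL distal stump). In the Nf1 KO bridge 1 endothelial marker was lower (411 to 433 CPM, against 492 to 522 CPM in the CTL bridge). Of 8 fibroblast markers, 2 were higher and 1 lower in the Nf1 KO bridge and 3 higher in the Nf1 KO distal stump. Erythroid markers summed to 1040 to 1320 CPM in the Nf1 KO bridge, against 1670 to 4600 CPM in the CTL bridge. They overlapped in the distal stump, at 785 to 1600 CPM in Nf1 KO and 927 to 3300 CPM in CTL. None of the 6 was called in either region, and 5 were lower over both regions. Of 6 mast cell markers, 2 were lower and 0 higher over both regions. Skeletal muscle markers summed to 440 to 1720 CPM in the Nf1 KO bridge, against 1280 CPM in CTL bridge 2 and 9720 and 8660 CPM in CTL bridge 1 and 3, the libraries called muscle-rich here. Nf1 KO distal stump 1 stood apart from its group at 3089 CPM, against 16 and 107 CPM in the other Nf1 KO distal stump libraries and 23.1 to 296 CPM in the CTL distal stump. Without Nf1 KO distal stump 1, 3 of the 6 members called in the distal stump remained, and Hras, Mras and Gab1 were lost. Neutrophil markers were high in Nf1 KO bridge 1 (1200 CPM) and Nf1 KO distal stump 1 (577 CPM). The 4 Y-linked genes summed to 41.2 to 147 CPM in the Nf1 KO bridge, against 102 to 216 CPM in the CTL bridge, and to 39.8 to 106 CPM in the Nf1 KO distal stump, against 116 to 197 CPM in the CTL distal stump. The part of these differences in the results below was not tested beyond the fits without the libraries rich in muscle or neutrophil RNA and with the Y-linked level as a covariate.

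All 33 genes passed the filter on low counts. Per kilobase of exon, Mapk3 (ERK1) had the highest mean level of the 33 at 46.0 CPM per kb over 12 libraries, followed by Rras at 41.7, Map2k1 at 20.7 and Map2k2 at 16.2 CPM per kb. The lowest were Ksr2 at 0.028, Rasgrf1 at 0.305 and Shc3 at 0.679 CPM per kb. Ksr2, a kinase suppressor of RAS, rested on 9 to 20 counts per library. The order within each role was led by Rras among the RAS GTPases, Shc1 among the adaptors, Rasgrp2 among the exchange factors, Araf among the RAF kinases and scaffolds, and Mapk3 among the kinases below them. This order is that of means over 12 libraries and was not the same in every group. In the Nf1 KO bridge Rras (42.9 ± 3.26 CPM per kb) had a higher mean than Mapk3 (36.4 ± 4.15), with overlapping libraries. Every Sos2 library there (4.53 ± 0.163) lay above every Rasgrp2 library (3.75 ± 0.773 CPM per kb). Without division by length, Rasgrp2 had the higher mean there, at 46.5 ± 9.58 against 38.5 ± 1.38 CPM for Sos2. Length is the union of all annotated exons, 12.4 kb for Rasgrp2 and 8.51 kb for Sos2, and can exceed that of the transcripts present. The order and the family shares below depend on this length, and no other length was tried. In the CTL distal stump Grb2 (16.9 ± 5.2) had a higher mean than Shc1 (13.2 ± 0.62 CPM per kb), with overlapping libraries (SD, n = 3 each). Nras varied least, with a highest library 1.14 times the lowest, and Shc3 most, at 4.2 times.

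**Figure D1:**
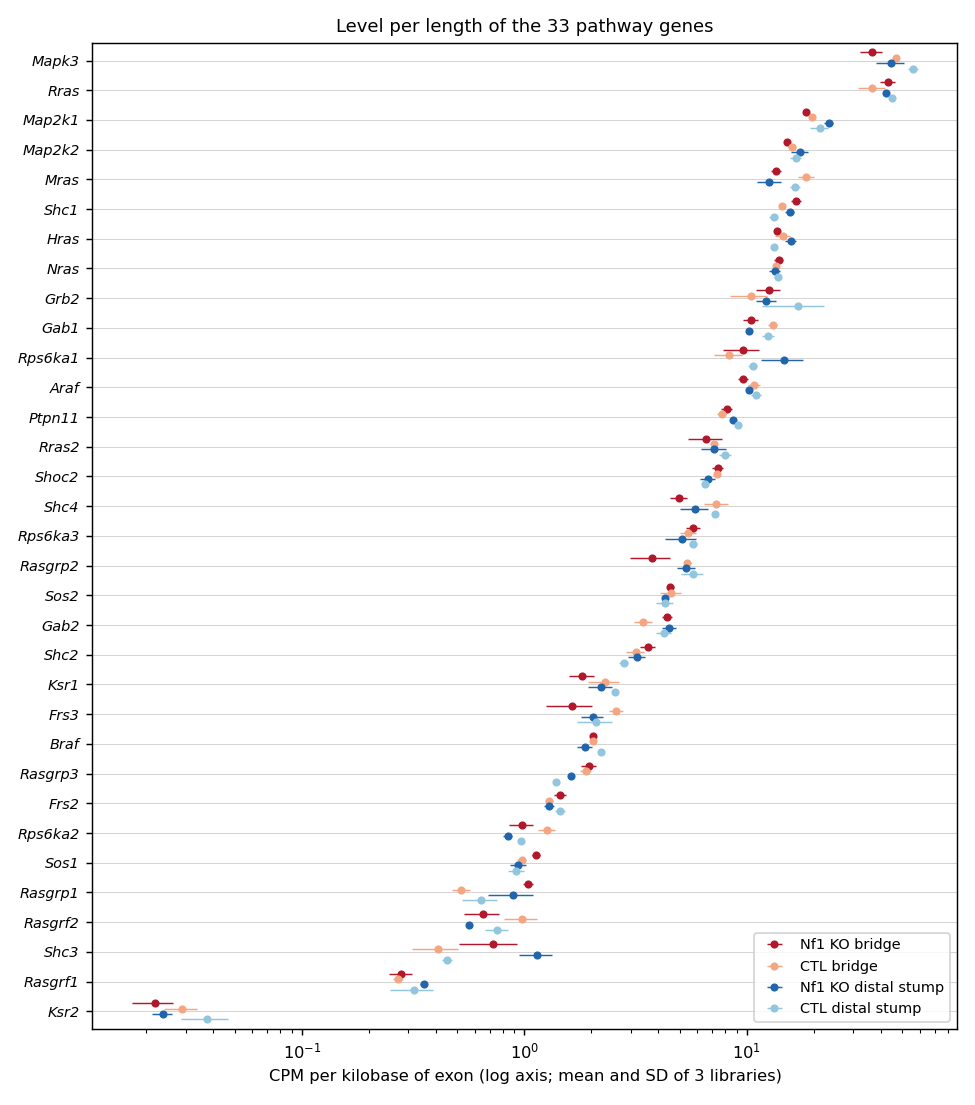
Level of the 33 genes in CPM per kilobase of exon (log axis), as mean and SD of 3 libraries for each of the 4 groups, ordered by the mean over 12 libraries. Mapk3 heads the order at 46.0 and Ksr2 closes it at 0.028 CPM per kb.

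Loss of Nf1 went with changes in both directions among these genes in the bridge. Of the 33, 4 were higher and 8 lower in the Nf1 KO bridge, which is 36.4% of the members, against 14.6% of all 19189 genes tested (7.81% higher and 6.76% lower). Among genes with a mean of at least 10 CPM the shares were 30.8% (8 of 26 members) and 19.8%, a narrower gap. The median log2 fold change was −0.003 over the members and −0.004 over all genes tested. In the distal stump 3 members were higher and 3 lower in Nf1 KO, 18.2% of the members against 8.14% of all genes tested (4.45% higher and 3.69% lower), with medians of −0.075 and −0.001. Among abundant genes the distal shares were 19.2% (5 of 26) and 11.3%. Averaged over both regions, which uses the same libraries again and is no independent evidence, 4 members were higher (Shc3, Rasgrp1, Shc1 and Gab2) and 7 lower (Mras, Gab1, Shc4, Mapk3, Rasgrf2, Rps6ka2 and Rasgrp2), 33.3% against 20.9% of all genes tested (11.3% higher and 9.66% lower).

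**Figure D2:**
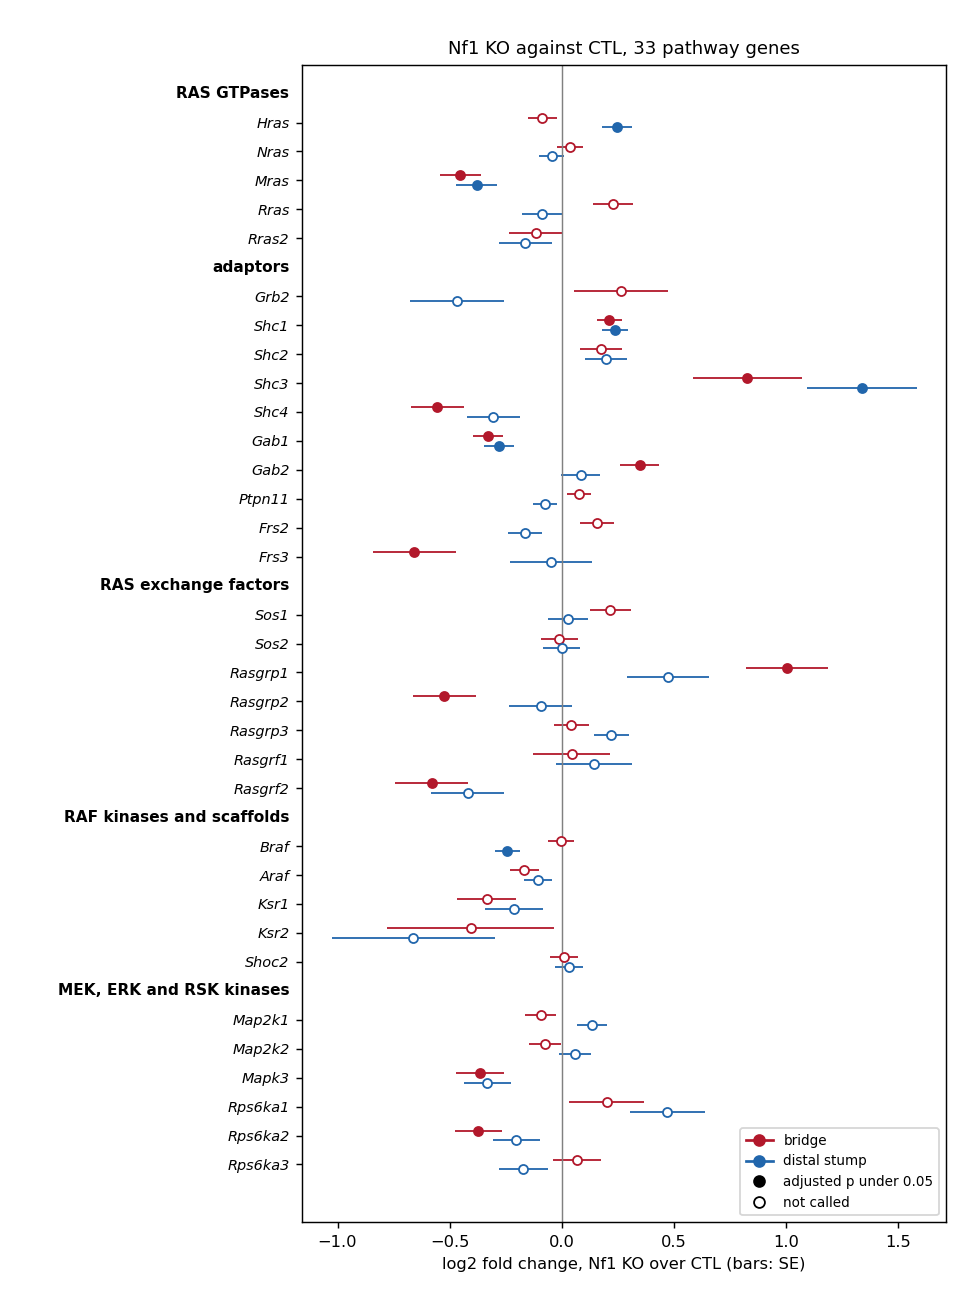
Log2 fold change of Nf1 KO over CTL for the 33 genes by role, with SE bars, in the bridge (red) and the distal stump (blue); filled points have an adjusted p under 0.05. Shc3 has the highest value of the 33 in the distal stump at 1.34 and Rasgrp1 in the bridge at 1.01, and Frs3 the lowest in the bridge at −0.66.

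Promoter sequences are shown for genes that were lower over both regions and whose 250 bases before the RefSeq transcription start hold no annotated exon base: Shc4, Rasgrf2 and Rps6ka2. Windows are from RefSeq (GRCm38.p6), read 5′ to 3′ on the strand of the gene: chr2:125724149-125724398 (minus strand) for Shc4, chr13:92131829-92132078 (minus) for Rasgrf2 and chr17:7169865-7170114 (plus) for Rps6ka2. Capitals mark matches, on either strand, to 6 motifs: ETS (CCGGAA), AP-1 (TGANTCA), CRE half-site (TGACGT), GC box (GGGCGG), SOX (ACAAAG) and the CCAAT box, searched by those 5 letters.
Shc4: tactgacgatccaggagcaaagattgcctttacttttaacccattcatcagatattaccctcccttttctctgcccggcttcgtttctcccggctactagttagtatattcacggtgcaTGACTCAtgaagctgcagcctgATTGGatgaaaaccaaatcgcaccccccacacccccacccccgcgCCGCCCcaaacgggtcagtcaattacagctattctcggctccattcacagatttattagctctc
Rasgrf2: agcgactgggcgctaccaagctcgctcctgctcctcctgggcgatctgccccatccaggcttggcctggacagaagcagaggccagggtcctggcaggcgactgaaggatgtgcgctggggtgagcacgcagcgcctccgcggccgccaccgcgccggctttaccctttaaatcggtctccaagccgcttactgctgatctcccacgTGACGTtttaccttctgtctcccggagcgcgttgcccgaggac
Rps6ka2: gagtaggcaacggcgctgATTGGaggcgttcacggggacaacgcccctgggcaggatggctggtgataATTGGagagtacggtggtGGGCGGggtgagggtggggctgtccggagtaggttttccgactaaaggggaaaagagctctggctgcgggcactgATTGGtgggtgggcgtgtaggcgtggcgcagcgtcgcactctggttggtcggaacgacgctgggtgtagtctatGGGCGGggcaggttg
The Shc4 window holds an AP-1 match 131 bases before the start, a CCAAT box at 109 and a GC box at 64 bases. Rasgrf2 has a CRE half-site 43 bases before the start. Rps6ka2 has GC boxes at 164 and 15 bases and CCAAT boxes at 232, 182 and 89 bases before the start. Of all 32851 RefSeq mouse promoters of this table, over the same span, 6.75% hold the AP-1 letters, 6.47% the CRE half-site, 32.7% the GC box, 33.8% the CCAAT box, 12.0% the ETS and 16.5% the SOX letters. No motif of the 6 is found in all 3 windows, and a match is not a bound site.

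Among the RAS GTPases, Mras fell in Nf1 KO in both regions. Mras (chr9:99385420-99437381, minus strand, GRCm38) encodes the RAS relative that joins SHOC2 in the phosphatase complex acting on RAF. It had 66.0, 73.5 and 69.0 CPM in the Nf1 KO bridge, against 99.2, 99.9 and 86.2 CPM in the CTL bridge, and 57.1, 64.9 and 72.7 CPM in the Nf1 KO distal stump, against 80.02, 84.4 and 88.6 CPM in the CTL distal stump. Every Nf1 KO library was below every CTL library of its region, and the log2 fold change was −0.45 ± 0.09 (adjusted p = 0.00998) in the bridge and −0.38 ± 0.09 (adjusted p = 0.0312) in the distal stump. Mras took 14.9% ± 0.79 of the summed level per kilobase of the 5 RAS genes listed here in the Nf1 KO bridge and 20.6% ± 2.6 in the CTL bridge, and 13.8% ± 1.2 in the Nf1 KO distal stump and 17% ± 0.72 in the CTL distal stump (SD, n = 3 each).

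Hras, one of the classical RAS genes, rose in the Nf1 KO distal stump, to 59.5, 55.2 and 61.8 CPM, against 51.0, 48.7 and 49.0 CPM in the CTL distal stump. Its log2 fold change was 0.25 ± 0.07 (adjusted p = 0.0445) there, with no overlap. In the bridge its groups overlapped, at 51.6, 52.5 and 49.1 CPM in Nf1 KO and 56.3, 49.5 and 56.9 CPM in CTL (log2 fold change −0.09 ± 0.07, adjusted p = 0.433). The test of the difference between the regions gave −0.33 ± 0.09 for Hras, with an adjusted p of 0.198.

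Nras, another classical RAS gene, had 74.1 ± 3.49 CPM in the Nf1 KO bridge, 72.3 ± 1.05 in the CTL bridge, 71.0 ± 3.87 in the Nf1 KO distal stump and 73.2 ± 2.90 CPM in the CTL distal stump (SD, n = 3 each). Its log2 fold changes were 0.04 ± 0.06 in the bridge and −0.04 ± 0.06 in the distal stump. Rras, which acts on integrin adhesion, had 50.8, 49.7 and 44.0 CPM in the Nf1 KO bridge, against 38.7, 36.8 and 47.4 CPM in the CTL bridge. The groups overlapped through CTL bridge 3 (log2 fold change 0.23 ± 0.09, adjusted p = 0.113). Distal stump libraries had 47.6, 46.7 and 48.1 CPM in Nf1 KO, against 50.0, 50.9 and 50.7 CPM in CTL, with adjusted p = 0.612. Rras2 lay between 21.1 and 30.3 CPM and did not pass in either region.

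The adaptors moved in both directions, with 3 of 10 higher and 3 lower in the Nf1 KO bridge. SHC adaptors bind phosphorylated receptors and recruit GRB2. Shc1, the widely expressed SHC gene (chr3:89418443-89430027, plus strand), had 98.0, 94.8 and 88.4 CPM in the Nf1 KO bridge, against 80.1, 81.4 and 81.1 CPM in the CTL bridge. For the distal stump the levels were 85.6, 86.2 and 92.8 CPM in Nf1 KO, against 77.6, 75.9 and 70.8 CPM in CTL. All Nf1 KO libraries lay above the CTL libraries of their region, and the differences were small, with log2 fold changes of 0.21 ± 0.06 (adjusted p = 0.0312) and 0.24 ± 0.06 (adjusted p = 0.0287).

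Shc3, an SHC gene known in mouse for its expression in neurons (chr13:51431041-51569419, minus strand), rose in both regions. It had 2.31, 4.22 and 3.37 CPM in the Nf1 KO bridge, against 2.30, 1.44 and 1.86 CPM in the CTL bridge, and 4.27, 5.33 and 6.05 CPM in the Nf1 KO distal stump, against 2.00, 1.99 and 2.19 CPM in the CTL distal stump. In the bridge Nf1 KO replicate 1 stood next to CTL replicate 1, whereas in the distal stump the groups were far apart. The log2 fold change was 0.83 ± 0.24 (adjusted p = 0.0465) in the bridge and 1.34 ± 0.24 (adjusted p = 0.00866) in the distal stump, on 44 to 194 counts per library. Neuronal markers summed to 64.6 to 77.3 CPM in the Nf1 KO bridge, against 57.7 to 91.4 CPM in the CTL bridge. In the distal stump they summed to 151 to 187 CPM in Nf1 KO, against 131 to 167 CPM in CTL. None of the 6 tested was called in either region. Over both regions 2 of the 6 were lower and 0 higher in Nf1 KO, where 20.9% of all genes tested were called.

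Shc4, another SHC gene (chr2:125627447-125724148, minus strand), moved the other way. It had 37.3, 44.5 and 41.4 CPM in the Nf1 KO bridge, against 62.2, 66.6 and 52.2 CPM in the CTL bridge. Its distal stump levels were 40.4, 50.7 and 54.0 CPM in Nf1 KO, against 60.0, 58.4 and 60.8 CPM in CTL. The groups did not overlap in either region. The log2 fold change was −0.55 ± 0.12 (adjusted p = 0.0115) in the bridge, and −0.30 ± 0.12 (adjusted p = 0.147) in the distal stump, where it did not pass. Of the exon bases of Shc4, 527 (6.38%) overlap Eid1 on the opposite strand, and whether strand was used in the counting is not given in the sources used here. Shc2, also an SHC gene of neurons, had 14.3 to 21.1 CPM and did not pass in either region.

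Within the SHC family the shares of summed level per kilobase followed from these shifts. Shc1 made up 64.2% ± 3.0 in the Nf1 KO bridge and 56.9% ± 1.8 in the CTL bridge, and Shc4 19.2% ± 1.4 in the Nf1 KO bridge and 28.9% ± 2.7 in the CTL bridge (SD, n = 3 each). In the distal stump Shc4 made up 22.6% ± 2.2 in Nf1 KO and 30.5% ± 0.99 in CTL, and Shc3 4.39% ± 0.49 in Nf1 KO and 1.89% ± 0.13 in CTL. The Shc4 share of every Nf1 KO library, at most 24.1%, was below that of every CTL library, at least 25.8%. These shares restate the levels and were not tested.

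**Figure D3:**
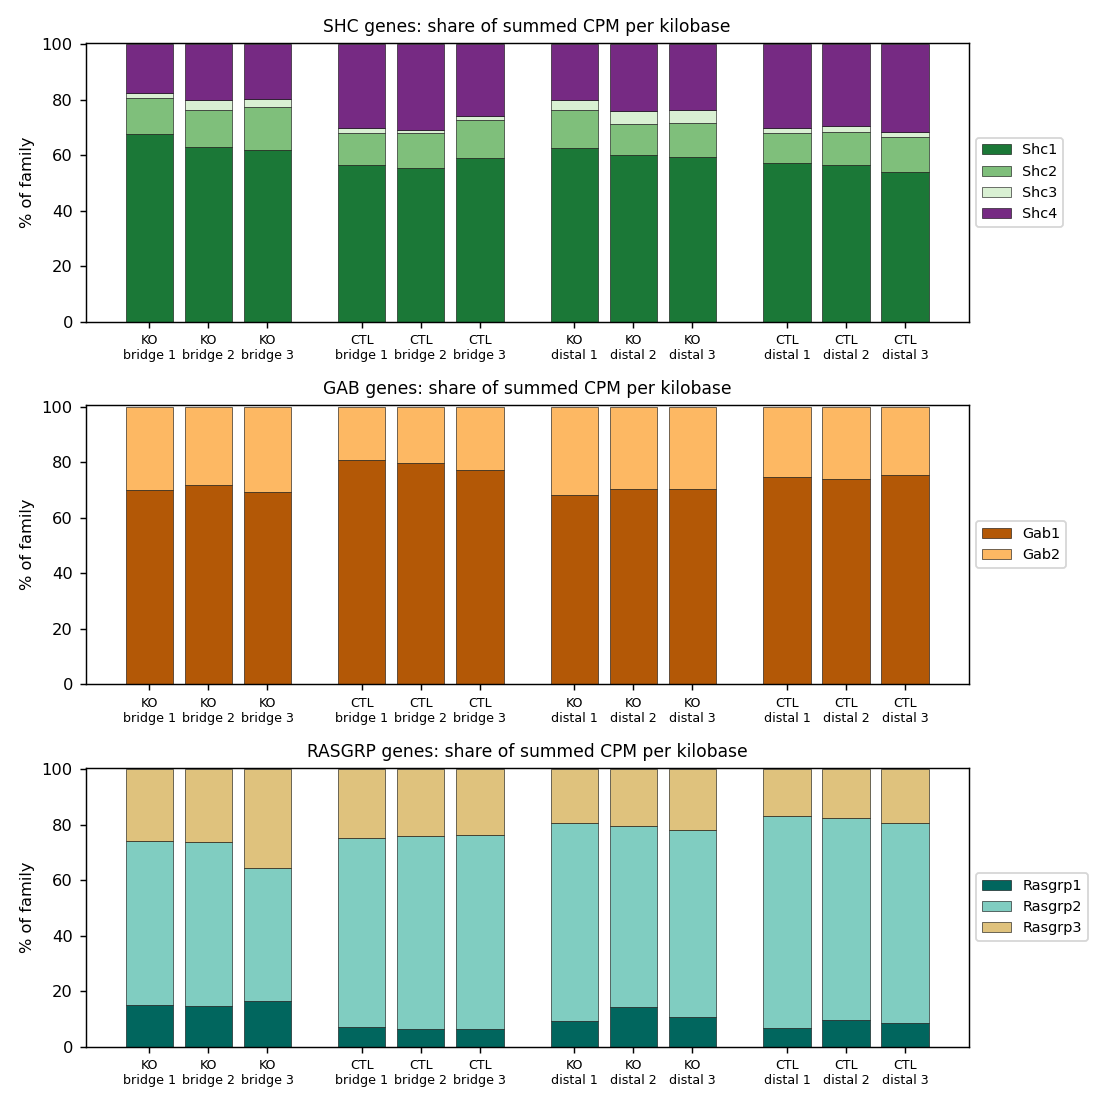
Share of each gene in the summed CPM per kilobase of its family, for the SHC, GAB and RASGRP genes, in each of the 12 libraries. Shc4 has 17.6 to 24.1% in Nf1 KO and 25.8 to 31.6% in CTL libraries, and Gab2 28.3 to 32.0% in Nf1 KO and 19.3 to 26.0% in CTL libraries.

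GAB proteins are docking proteins that, once phosphorylated, bind the phosphatase SHP2 and sustain signalling from receptors. Gab1 (chr8:80764438-80880519, minus strand) had 54.9, 55.5 and 48.4 CPM in the Nf1 KO bridge, against 65.4, 69.7 and 64.2 CPM in the CTL bridge. Distal stump libraries had 52.5, 50.5 and 52.9 CPM in Nf1 KO, against 67.1, 62.8 and 59.4 CPM in CTL. It fell in both regions without overlap, by 0.33 ± 0.07 on the log2 scale in the bridge (adjusted p = 0.0104) and by 0.28 ± 0.07 in the distal stump (adjusted p = 0.0305). Gab2 (chr7:97081586-97308946, plus strand) rose in the bridge, with 28.4, 26.6 and 25.9 CPM in Nf1 KO, against 19.04, 21.4 and 23.1 CPM in CTL (log2 fold change 0.35 ± 0.09, adjusted p = 0.024). For the distal stump the levels were 30.0, 26.1 and 27.04 CPM in Nf1 KO, against 27.8, 26.8 and 23.7 CPM in CTL, with overlap (log2 fold change 0.09 ± 0.09, adjusted p = 0.619). Macrophages express Gab2 among other cells, and macrophage markers summed to 1960 to 2430 CPM in the Nf1 KO bridge and 1770 to 2280 CPM in the CTL bridge, with 0 of 8 called there.

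Frs3 and Frs2 are docking proteins of fibroblast growth factor and neurotrophin receptors. Frs3 (chr17:47689030-47704286, plus strand) had 4.18, 4.70 and 6.48 CPM in the Nf1 KO bridge, against 8.75, 7.66 and 7.83 CPM in the CTL bridge. It fell there without overlap, by 0.66 ± 0.18 on the log2 scale (adjusted p = 0.0377). Its distal stump groups overlapped, at 6.12, 7.17 and 5.76 CPM in Nf1 KO and 5.26, 7.53 and 6.89 CPM in CTL (log2 fold change −0.05 ± 0.18, adjusted p = 0.919). Frs2 did not pass in either region. Grb2, the adaptor that carries SOS to receptors, had 34.4, 33.5 and 41.7 CPM in the Nf1 KO bridge, against 24.9, 29.8 and 36.3 CPM in the CTL bridge, and 35.9, 39.1 and 31.8 CPM in the Nf1 KO distal stump, against 64.3, 49.7 and 34.0 CPM in the CTL distal stump. Among its 4 groups the CTL distal stump libraries were the most spread, and neither region passed (adjusted p = 0.46 and 0.213). Ptpn11, which encodes SHP2, had log2 fold changes of 0.08 ± 0.05 in the bridge and −0.07 ± 0.05 in the distal stump and did not pass.

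The exchange factors load RAS with GTP. Rasgrp1 (chr2:117279993-117343001, minus strand), a factor activated by diacylglycerol and best known from T cells, had the highest log2 fold change of the 33 genes in the bridge. It had 6.16, 5.82 and 5.55 CPM in the Nf1 KO bridge, against 3.22, 2.72 and 2.79 CPM in the CTL bridge, and 4.24, 6.29 and 4.39 CPM in the Nf1 KO distal stump, against 3.13, 4.32 and 3.32 CPM in the CTL distal stump. The bridge groups were far apart (log2 fold change 1.01 ± 0.18, adjusted p = 0.00583), whereas in the distal stump CTL replicate 2 stood above Nf1 KO replicate 1 and the difference did not pass (0.47 ± 0.18, adjusted p = 0.147). T cell markers summed to 31 to 41.6 CPM in the Nf1 KO bridge, against 24.8 to 49.5 CPM in the CTL bridge, and of the 8 markers 1, Cd28, was lower and none higher.

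Rasgrp2 (chr19:6399340-6415216, plus strand), a calcium- and diacylglycerol-regulated factor that acts mainly on RAP1 and is abundant in platelets, fell in the Nf1 KO bridge. It had 52.8, 51.2 and 35.5 CPM there, against 69.2, 64.5 and 66.8 CPM in the CTL bridge (log2 fold change −0.52 ± 0.14, adjusted p = 0.032). The groups did not overlap, and Nf1 KO replicate 3 was the lowest library. Its distal stump levels were 73.3, 63.5 and 62.1 CPM in Nf1 KO, against 77.6, 73.0 and 61.8 CPM in CTL, with overlap (−0.09 ± 0.14, adjusted p = 0.754). Platelet and megakaryocyte markers summed to 98.9 to 111 CPM in the Nf1 KO bridge and 95.2 to 98.7 CPM in the CTL bridge, with 0 of 6 called. As a share of the summed level per kilobase of the 3 RASGRP genes, Rasgrp1 was at 15.5% ± 0.95 in the Nf1 KO bridge and 6.65% ± 0.34 in the CTL bridge, and Rasgrp2 at 55.2% ± 6.3 in the Nf1 KO bridge and 69.1% ± 0.72 in the CTL bridge (SD, n = 3 each).

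Rasgrf2 (chr13:91880400-92131656, minus strand), a calmodulin-regulated factor known from neurons, also fell in the Nf1 KO bridge, to 4.80, 6.91 and 6.36 CPM, against 9.01, 7.501 and 10.5 CPM in the CTL bridge (log2 fold change −0.58 ± 0.16, adjusted p = 0.0371). Distal stump libraries had 5.22, 5.25 and 5.15 CPM in Nf1 KO, against 6.71, 6.31 and 7.87 CPM in CTL. The groups did not overlap there either, but the difference did not pass (−0.42 ± 0.16, adjusted p = 0.151). Over both regions its log2 fold change was −0.50 ± 0.11 (adjusted p = 0.0112). Rasgrf1, its relative, had 2.69 to 4.32 CPM and did not pass.

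Sos1 and Sos2, the exchange factors that GRB2 brings to receptors, did not pass in either region. Sos2 was the more abundant per kilobase, and its log2 fold changes were −0.01 ± 0.08 in the bridge and 0.00 ± 0.08 in the distal stump. Sos1 had 11.5, 12.5 and 11.9 CPM in the Nf1 KO bridge, against 10.3, 10.8 and 9.80 CPM in the CTL bridge, with no overlap and an adjusted p of 0.141 (0.22 ± 0.09). Rasgrp3, which is known from B cells and endothelium, had log2 fold changes of 0.04 ± 0.08 in the bridge and 0.22 ± 0.08 in the distal stump (adjusted p = 0.782 and 0.126).

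Of the RAF kinases and scaffolds, 0 of 5 were called by edgeR in the bridge, where Araf and Ksr1 had an unadjusted p under 0.05, and 0 of 5 were called there by DESeq2. Braf, a RAF kinase (chr6:39603237-39725463, minus strand), fell in the distal stump, to 27.4, 26.8 and 23.6 CPM in Nf1 KO, against 31.2, 30.6 and 30.1 CPM in CTL, with no overlap (log2 fold change −0.24 ± 0.06, adjusted p = 0.0272). In the bridge it had 28.0, 27.4 and 28.9 CPM in Nf1 KO and 28.4, 27.6 and 28.4 CPM in CTL, and the groups overlapped almost fully (0.00 ± 0.06, adjusted p = 0.982). Araf, the more abundant RAF kinase listed here per kilobase, had 66.0, 63.0 and 59.7 CPM in the Nf1 KO bridge, against 65.3, 73.4 and 72.9 CPM in the CTL bridge. For the distal stump the levels were 67.6, 67.8 and 65.4 CPM in Nf1 KO, against 68.5, 71.4 and 76.1 CPM in CTL, and it passed in neither region (adjusted p = 0.112 and 0.363). The scaffold Ksr1, which holds RAF, MEK and ERK together, had log2 fold changes of −0.33 ± 0.13 in the bridge and −0.21 ± 0.13 in the distal stump (adjusted p = 0.118 and 0.375). Shoc2, the leucine-rich scaffold of the RAF phosphatase, had 0.01 ± 0.06 and 0.03 ± 0.06 in these regions and did not pass (adjusted p = 0.956 and 0.812).

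Below RAF, Mapk3 was lower in Nf1 KO. Mapk3 (chr7:126759601-126765819, plus strand), which encodes ERK1, had 76.0, 93.0 and 77.7 CPM in the Nf1 KO bridge, against 105, 106 and 107 CPM in the CTL bridge. Its distal stump levels were 84.0, 106 and 112 CPM in Nf1 KO, against 134, 122 and 124 CPM in CTL. The groups did not overlap in either region, and the Nf1 KO libraries were the more spread. The log2 fold change was −0.37 ± 0.11 (adjusted p = 0.0442) in the bridge, −0.33 ± 0.11 (adjusted p = 0.0889) in the distal stump, where it did not pass, and −0.35 ± 0.08 (adjusted p = 0.00853) over both regions.

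The MEK genes Map2k1 and Map2k2 did not pass by genotype. Map2k1 had log2 fold changes of −0.09 ± 0.07 in the bridge and 0.13 ± 0.07 in the distal stump, and Map2k2 of −0.07 ± 0.07 and 0.06 ± 0.07. RSK kinases are substrates and effectors of ERK. Rps6ka2 (chr17:7170115-7303315, plus strand) had 8.61, 11.1 and 9.49 CPM in the Nf1 KO bridge, against 13.5, 13.0 and 11.3 CPM in the CTL bridge, and fell without overlap by 0.37 ± 0.11 on the log2 scale (adjusted p = 0.0398). Distal stump libraries had 8.18, 8.88 and 8.17 CPM in Nf1 KO, against 9.38, 9.99 and 9.67 CPM in CTL, with no overlap and an adjusted p of 0.291. Rps6ka1 had 50.9, 77.2 and 60.2 CPM in the Nf1 KO distal stump, against 43.3, 47.7 and 45.1 CPM in the CTL distal stump, with no overlap and an adjusted p of 0.12 (0.47 ± 0.17). Rps6ka3 passed in neither region (adjusted p = 0.746 and 0.394).

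**Figure D4:**
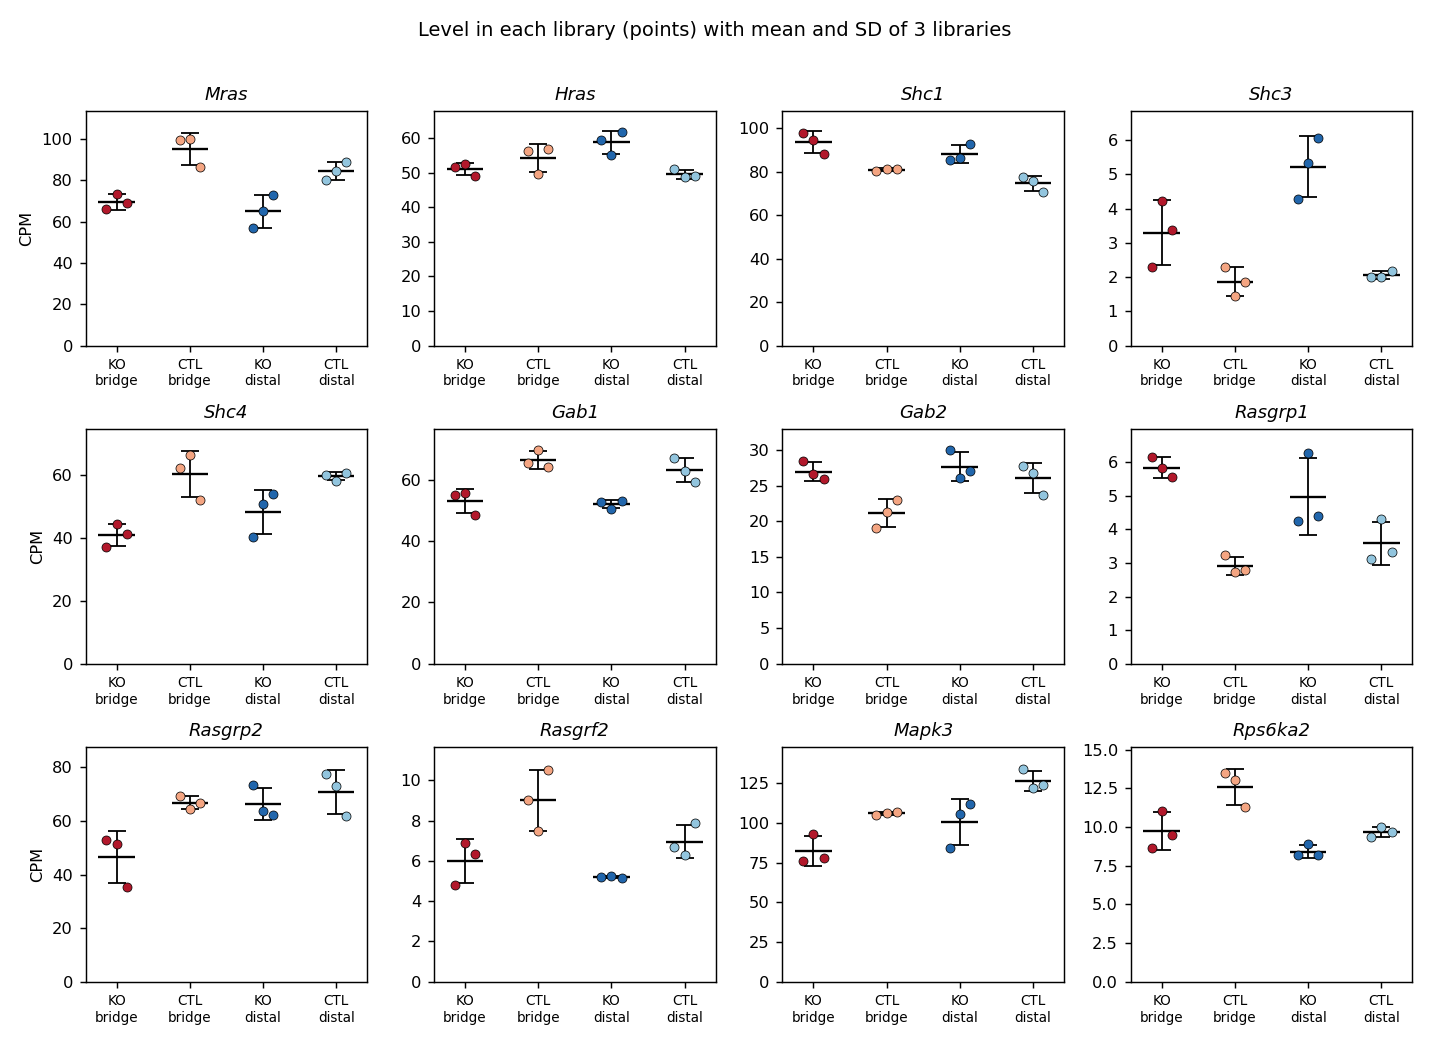
CPM of 12 genes in each library (points), with the mean and SD of 3 libraries, for Nf1 KO and CTL in the bridge and then in the distal stump. Rasgrp1 lies between 5.55 and 6.16 in the Nf1 KO bridge and 2.72 and 3.22 CPM in the CTL bridge, and Shc3 between 4.27 and 6.05 in the Nf1 KO distal stump and 1.99 and 2.19 CPM in the CTL distal stump.

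Counted by overlap, 6 of the 33 members lay wholly above and 9 wholly below CTL in the bridge, where 34.4% of all genes tested did not overlap (17.8% above and 16.7% below). In the distal stump 5 lay wholly above and 14 wholly below, where 27.1% of all genes tested did not overlap (13.9% above and 13.2% below).

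The calls differed in how much they depended on single libraries. The calls of Shc4 in the bridge, Shc3 in the distal stump, and Shc3, Shc4, Mras, Gab1, Rasgrp1 and Shc1 over both regions held in all 21 or 22 alternative fits. In the bridge, Mras (adjusted p = 0.0649), Gab1 (0.0669) and Rasgrp1 (0.0792) lost the call only without both muscle-rich libraries, which leaves 1 CTL bridge library, and their log2 fold changes over all fits were −0.53 to −0.41, −0.40 to −0.27 and 0.91 to 1.11. The other bridge calls were also lost without single bridge libraries, given here with the highest adjusted p over all alternative fits. Rasgrp2 was lost without Nf1 KO bridge 3 or any CTL bridge library (adjusted p up to 0.284), Gab2 without Nf1 KO bridge 1 or 2 or CTL bridge 1 or 2 (up to 0.163), and Frs3 and Shc1 without Nf1 KO bridge 1 or 2 or any CTL bridge library (up to 0.301 and 0.289). Rasgrf2 was lost without Nf1 KO bridge 1 or 3 or CTL bridge 1 or 3 (up to 0.494), Shc3 without Nf1 KO bridge 2 or 3 or any CTL bridge library (up to 0.173), Mapk3 without Nf1 KO bridge 1 or 3 or any CTL bridge library (up to 0.281), and Rps6ka2 without Nf1 KO bridge 1 or 3 or CTL bridge 1 or 2 (up to 0.156). Leaving out distal stump libraries, which enter through the shared estimate of spread, also ended the calls of Shc3, Rasgrf2, Mapk3, Rps6ka2 and Frs3. With the Y-linked covariate, Shc1, Shc3, Frs3, Rasgrp2 and Rasgrf2 lost the bridge call. Fits of only the libraries compared lost these and Rps6ka2. Without both neutrophil-rich libraries, Shc1, Gab2, Frs3, Rasgrf2, Mapk3 and Rps6ka2 lost it.

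In the distal stump, Mras was lost without Nf1 KO distal stump 1 or 2 or any CTL distal stump library (adjusted p up to 0.106), and Gab1 without any Nf1 KO distal stump library or CTL distal stump 1 or 2 (up to 0.104). Shc1 was lost without Nf1 KO or CTL distal stump 2 or 3 (up to 0.118), and Braf without Nf1 KO distal stump 2 or 3 or any CTL distal stump library (up to 0.117). Hras kept its call in 7 of 22 fits, with a log2 fold change of 0.21 to 0.29 in all 22. With the Y-linked covariate, Hras, Shc1, Gab1 and Braf lost the distal stump call. Without both neutrophil-rich libraries, Hras, Mras, Shc1 and Gab1 lost it, and with only the libraries compared these and Braf. Over both regions, Mapk3 (adjusted p = 0.0623) and Rasgrf2 (0.113) lost the call only without both muscle-rich libraries, Rps6ka2 also without both neutrophil-rich libraries (up to 0.0795), and Gab2 and Rasgrp2 kept it in 11 and 10 of 21 fits. No member called by genotype or region changed direction in any alternative fit.

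Whether the genotype difference itself depended on region was tested as an interaction. By edgeR 0 of 33 members and 0% of all genes tested were called, and 7 members had an unadjusted p under 0.05 (Hras, Rras, Grb2, Frs2, Frs3, Braf and Map2k1). DESeq2 called 0 members and 2.34% of all genes, a share too small for 0 of 33 to set the members apart. The genes called in 1 region alone are therefore not shown to differ between regions.

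Between the regions, fewer members differed than by genotype. In CTL, 2 members were higher and 1 lower in the bridge than in the distal stump, 9.09% of the members against 9.85% of all genes tested (5.15% higher and 4.71% lower). In Nf1 KO, 1 was higher and 3 lower, 12.1% against 15.2% of all genes tested (7.78% higher and 7.41% lower). Both shares were at or below the background. By overlap, 3 members lay wholly above and 7 wholly below the distal stump in Nf1 KO, where 34% of all genes tested did not overlap (17.2% above and 16.8% below). In CTL 5 lay wholly above and 8 wholly below, where 29.6% did not overlap (15.7% above and 13.9% below). The comparisons share libraries with those of genotype.

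Rasgrp3 (chr17:75435896-75529054, plus strand) was higher in the bridge in both genotypes. It had 11.0, 10.8 and 12.4 CPM in the Nf1 KO bridge, against 9.39, 9.37 and 9.51 CPM in the Nf1 KO distal stump, and 11.8, 10.6 and 10.8 CPM in the CTL bridge, against 8.16, 8.23 and 7.84 CPM in the CTL distal stump. The regions did not overlap in either genotype, and the log2 fold change of bridge over distal stump was 0.27 ± 0.08 (adjusted p = 0.0418) in Nf1 KO and 0.45 ± 0.08 (adjusted p = 0.00893) in CTL. Of 8 endothelial markers, 7 were also higher in the bridge in Nf1 KO (411 to 433 CPM in sum, against 279 to 325 CPM in the distal stump) and 3 in CTL (492 to 522 CPM, against 373 to 448 CPM). Their part in the Rasgrp3 difference was not tested. The Nf1 KO call was kept in 5 of 22 fits and lost without any single library of either Nf1 KO group, with adjusted p up to 0.137, and the CTL call was lost only without both muscle-rich libraries (adjusted p = 0.117).

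In Nf1 KO, Map2k1 (MEK1, chr9:64185770-64253631, minus strand) was lower in the bridge, at 61.5, 61.2 and 65.2 CPM, against 74.8, 80.2 and 81.8 CPM in the distal stump, with no overlap (log2 fold change −0.33 ± 0.07, adjusted p = 0.00922). Its call held in all 22 fits. In CTL its regions overlapped, at 64.6, 67.7 and 68.2 CPM in the bridge and 69.4, 79.3 and 67.1 CPM in the distal stump (−0.11 ± 0.07, adjusted p = 0.38). The difference between the genotypes in this value did not pass (−0.23 ± 0.10, adjusted p = 0.342).

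Rps6ka1 (chr4:133847290-133887797, minus strand) was lower in the Nf1 KO bridge, at 49.0, 39.1 and 34.4 CPM, against 50.9, 77.2 and 60.2 CPM in the Nf1 KO distal stump (−0.62 ± 0.17, adjusted p = 0.0307). In CTL it had 29.8, 37.2 and 39.3 CPM in the bridge, against 43.3, 47.7 and 45.1 CPM in the distal stump, with no overlap and an adjusted p of 0.224. The Nf1 KO call was lost without bridge 2 or 3 or distal stump 2 or 3 of that genotype (adjusted p up to 0.106). Rasgrp2 was likewise lower in the Nf1 KO bridge than in the Nf1 KO distal stump without overlap (−0.51 ± 0.14, adjusted p = 0.034), and this call was lost without Nf1 KO bridge 3 or any Nf1 KO distal stump library (adjusted p up to 0.0922). In CTL the value for Rasgrp2 was −0.08 ± 0.14 (adjusted p = 0.788).

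In CTL, Ptpn11 (chr5:121130533-121191397, minus strand) was lower in the bridge, at 59.6, 54.5 and 59.1 CPM, against 67.6, 68.4 and 68.3 CPM in the distal stump (−0.24 ± 0.05, adjusted p = 0.0215). Its Nf1 KO libraries had 57.9, 64.3 and 60.3 CPM in the bridge, against 63.3, 65.1 and 65.6 CPM in the distal stump, and overlapped (adjusted p = 0.313). Rps6ka2 was higher in the CTL bridge than in the CTL distal stump without overlap (0.38 ± 0.11, adjusted p = 0.0479). The Ptpn11 call was lost without CTL bridge 2 or CTL distal stump 1 or 2 (adjusted p up to 0.0744), and the Rps6ka2 call was kept in 7 of 22 fits, being lost among others without CTL bridge 1 or 2 or any distal stump library (up to 0.171).

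**Figure D5:**
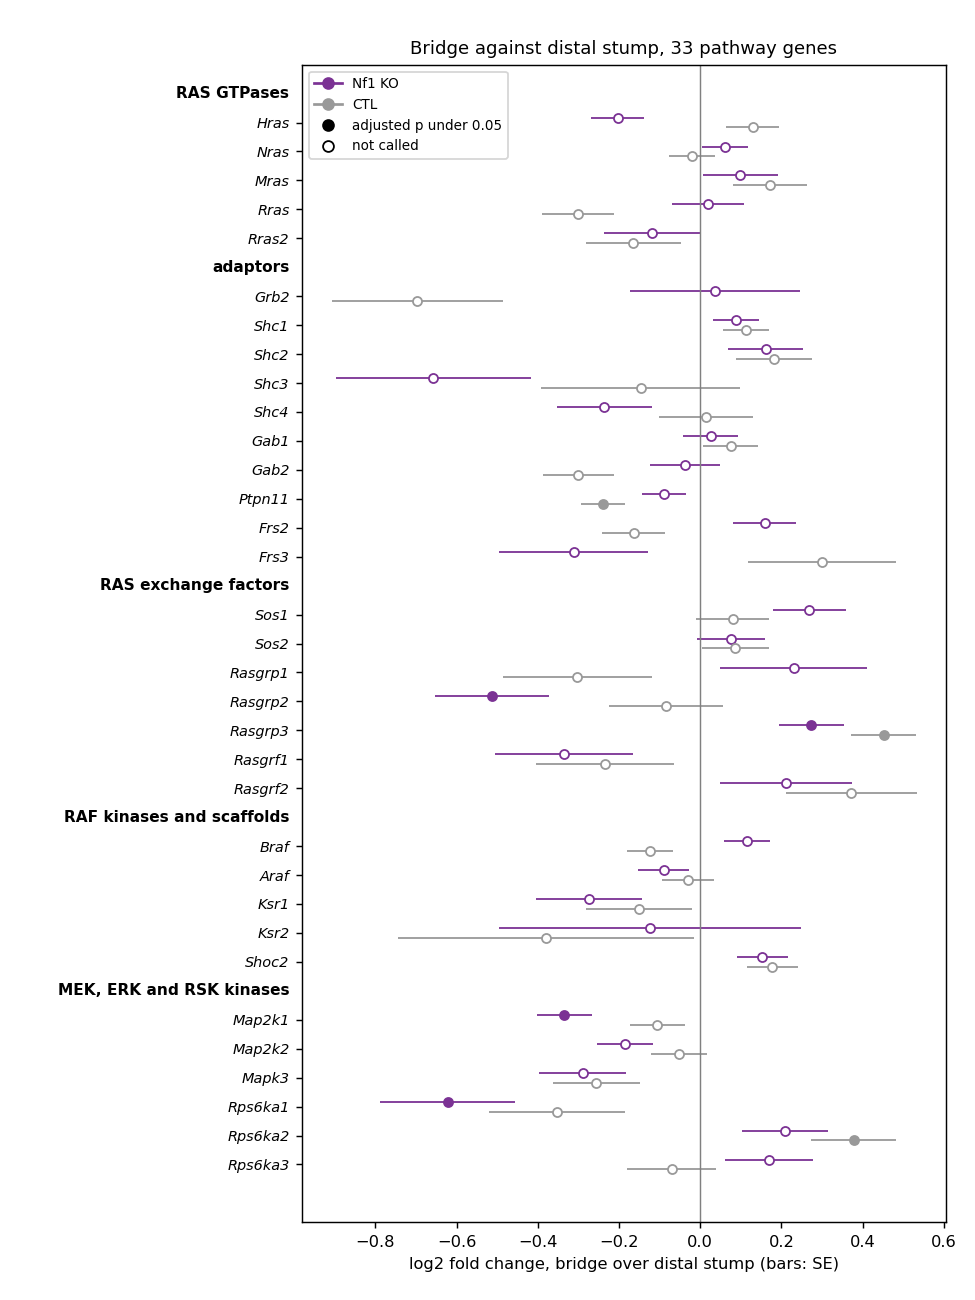
Log2 fold change of bridge over distal stump for the 33 genes by role, with SE bars, in Nf1 KO (purple) and CTL (grey); filled points have an adjusted p under 0.05. Rasgrp3 is filled in both genotypes (0.27 in Nf1 KO and 0.45 in CTL), and Map2k1, Rps6ka1 and Rasgrp2 lie below 0 and are filled in Nf1 KO.

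Genes around the core pathway were counted by genotype against the same shares of all genes tested, 14.6% in the bridge, 8.14% in the distal stump and 20.9% over both regions. Of 11 feedback inhibitors tested, 5 were higher and 0 lower in the Nf1 KO bridge, 5 and 0 in the Nf1 KO distal stump, and 8 and 0 over both regions, with a median log2 fold change of 0.28 over both. The distal count was 3 without Nf1 KO distal stump 3, CTL distal stump 1 or both neutrophil-rich libraries. It was also 3 with only the libraries compared and with the Y-linked covariate. The count over both regions was 4 with the Y-linked covariate. Both counts were also lower without both muscle-rich libraries, which leaves 1 CTL bridge library. Spry4, an inhibitor of receptor signalling to RAS, had log2 fold changes of 1.05 ± 0.10 in the bridge and 0.92 ± 0.10 in the distal stump. Spred1, which brings neurofibromin to the membrane, had 0.61 ± 0.05 and 0.82 ± 0.05, and Dusp6, an ERK phosphatase, had 0.43 ± 0.07 and 0.58 ± 0.07. Dusp5 (0.78 ± 0.17), a nuclear ERK phosphatase, was named in the bridge and Spry2 (0.34 ± 0.08) in the distal stump. The Spry2 call was kept in 15 of 22 alternative fits and lost, among others, without Nf1 KO distal stump 2 or 3 or CTL distal stump 1.

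Of 12 transcripts known to be induced by ERK, 5 were higher and 0 lower in the Nf1 KO bridge, 4 and 0 in the Nf1 KO distal stump, and 7 and 0 over both regions, with a median of 0.36 over both. Egr1, an immediate early transcription factor, had log2 fold changes of 1.03 ± 0.23 in the bridge and 1.12 ± 0.23 in the distal stump. Its call was kept in 19 of 22 alternative fits in each region. Among others, it was lost in the bridge without Nf1 KO bridge 1 or CTL bridge 1, and in the distal stump without CTL distal stump 1 or 3. The ETS factors Etv5 and Etv1 had 0.43 ± 0.07 and 0.44 ± 0.09 in the bridge and 0.43 ± 0.07 and 0.72 ± 0.09 in the distal stump. In the bridge 0 of the ERK-induced transcripts and 2 of the feedback inhibitors were called without both muscle-rich libraries, with 0 lower in either list in any alternative fit. These lists were drawn up with results of these data known, so their direction is a description.

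Among 10 RAS GTPase-activating proteins, 1 was higher and 2 lower in the Nf1 KO bridge, and 0 higher and 2 lower in the Nf1 KO distal stump. The lower ones were Nf1 itself and Rasal2, with log2 fold changes of −0.78 ± 0.11 in the bridge and −0.52 ± 0.11 in the distal stump, and the higher one was Rasa1 (0.27 ± 0.07). Of 20 receptor tyrosine kinases, 1 was higher and 3 lower in the bridge, and 3 were higher and 2 lower in the distal stump. Flt3, a receptor of haematopoietic cells, had 1.54 ± 0.20 and 1.53 ± 0.20, and Met, the receptor of hepatocyte growth factor, had −0.97 ± 0.20 and −1.03 ± 0.19. Erbb2, a neuregulin co-receptor of Schwann cells, fell in the bridge by 0.32 ± 0.09 on the log2 scale. The calls of Rasa1 and Erbb2 were each kept in 13 of 22 alternative fits and lost without Nf1 KO bridge 1 or 3 or CTL bridge 1 or 2, among others.

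Of 18 RAF-complex and scaffold partners, 2 were higher (Iqgap1 and Ywhaz) and 1 lower (Pebp1, an inhibitor of RAF binding to MEK, −0.37 ± 0.10) in the Nf1 KO bridge, and 0 passed in the distal stump. Of 14 other adaptors, 2 were higher in the bridge and 3 in the distal stump, with 0 lower. Ptpn6, a phosphatase of blood cells, was higher in both, at 0.62 ± 0.15 and 0.56 ± 0.15. Of 9 RAS processing enzymes, Golga7, a subunit of the RAS palmitoyltransferase, was higher in both (0.17 ± 0.05 and 0.32 ± 0.05), and Fnta, a farnesyltransferase subunit, was lower in the bridge (−0.26 ± 0.08). Of 14 genes of parallel effectors, 3 were higher and 1 lower in the bridge, and 0 higher and 1 lower in the distal stump, Rala being the lower one in both (−0.25 ± 0.07 and −0.28 ± 0.07). Several of these calls depended on single libraries. The Rala call was kept in 9 of 22 alternative fits in the bridge and 6 of 22 in the distal stump, Fnta in 8, Golga7 in the bridge in 6, Pebp1 in 14, and Ptpn6 in 16 in the bridge and 9 in the distal stump. In the bridge, Rala, Fnta, Golga7 and Pebp1 were each lost whichever 1 bridge library was left out.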

How the data were processed

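Total RNA from pooled sciatic nerve fragments was extracted with Trizol and columns, depleted of ribosomal RNA and made into directional libraries with 15 PCR cycles, per the labels' protocols. The build was mm10, and DESeq2, cutadapt 1.2.1 and CASAVA 1.8.2 were among the tools, per the submitters' processing notes. How reads were aligned and counted, and whether by strand, is not given in the sources used here. Values deposited by the authors for 30452 genes in 12 libraries are whole numbers, unscaled, and are read as estimated counts per gene. They are not plain fragment counts for short genes: 228 genes have 120 bases or fewer, and their 957 values above 0 start at 19. All 33 members have longer exons.

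The estimated counts were fitted in edgeR 4.0.16 (R 4.3.3) with TMM factors, filterByExpr by group (19189 genes kept), 1 coefficient per group over all 12 libraries and glmQLFTest. P-values were adjusted by Benjamini-Hochberg over all genes tested, and called means adjusted p under 0.05. Genotypes were compared within each region and on average, regions within each genotype, and the interaction was tested. The SE of a log2 fold change is its size divided by the square root of the F statistic. CPM used TMM-scaled library sizes, and levels per kilobase the union of exons in GENCODE M21 (GRCm38), which also gave coordinates. Intervals of depth cover counting error only. Alternatives were DESeq2 1.42.0, other size factors, no filter, fits of only the libraries compared, the replicate number as a block, each library left out, libraries rich in muscle or neutrophil RNA left out, a gene that took 24.5% of 1 library left out of library sizes, and a Y-linked covariate. The neutrophil and Y-linked alternatives, and all alternatives for genes that are not members, were chosen after seeing the data. The procedure was tested on simulated counts. Of 67 genes changed by 0.5 on the log2 scale, it recovered 20.9% by genotype in the bridge, 31.3% in the distal stump and 38.8% over both regions. For region it recovered 7.46% in CTL and 13.4% in Nf1 KO, and for the interaction 4.48%. A difference that did not pass is therefore not shown to be absent. Each simulation changed far fewer of the 19189 genes than were called by genotype or region in the data, which makes the adjusted threshold stricter. Its genes were drawn at random once per comparison. The shares recovered are thus rough, and their differences between comparisons are not shown to be differences in power.

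The members, the gene lists and the rule for named genes were chosen with earlier results of these data known. By that rule, values in every library are printed for members called in a comparison and for the most abundant member per length of each role, and up to 4 called genes with the smallest p are named from each other pathway list. Grb2, Sos1 and Frs2, outside the rule, are given by library after their values were seen. Promoters came from RefSeq (29 of 33 members matched; Mapk3, Gab2, Shc3 and Rps6ka3 were not printed).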

Additional observations from a re-analysis of the deposited data

Results flagged for a closer look

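Frs2, a docking protein of fibroblast growth factor and neurotrophin receptors, was flagged because its genotype groups did not overlap, in opposite directions, in the 2 regions. The separation is thus the rule of choice and lends no support. Of all genes tested, 34.4% did not overlap in the bridge and 27.1% in the distal stump. The share that did so in opposite directions was not counted. It had 12.2, 13.5 and 12.2 CPM in the Nf1 KO bridge, against 10.9, 11.3 and 11.8 CPM in the CTL bridge, and 11.5, 10.7 and 11.8 CPM in the Nf1 KO distal stump, against 13.3, 12.0 and 12.8 CPM in the CTL distal stump. The log2 fold changes were 0.16 ± 0.08 in the bridge (adjusted p = 0.204) and −0.16 ± 0.08 in the distal stump (adjusted p = 0.232), neither of which passed. Their difference, tested as an interaction, was 0.32 ± 0.11 with an unadjusted p of 0.0131 and an adjusted p of 0.257 (edgeR).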

How the results depend on the processing

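Members called, Nf1 KO against CTL in the bridge, numbered 12 and became 7 with no filter on low counts and 6 with only the libraries compared. They numbered 6 without both neutrophil-rich libraries, 7 with the Y-linked covariate and 4 to 11 with each library left out. These counts and those below include calls gained in a fit. Without both muscle-rich libraries, which leaves 1 CTL bridge library, Shc4 alone of the 12 kept its call. In the distal stump 6 members became 1 with only the libraries compared and 1 to 6 with each library left out. Without the neutrophil-rich libraries 3 were called, 2 of them calls of the main fit, and Rps6ka1 was gained. With the Y-linked covariate 3 were called, 2 of them calls of the main fit, and Mapk3 was gained. Shc1, Gab1 and Braf lost their calls without the muscle-rich libraries. Over both regions 11 became 6 without the muscle-rich libraries and 9 to 12 with each library left out. For region in CTL 3 became 6 with DESeq2 and 1 with only the libraries compared, and 1 to 5 with each library left out. Without the muscle-rich libraries, which leaves 1 CTL bridge library, Ptpn11, Rasgrp3 and Rps6ka2 all lost their calls. For region in Nf1 KO 4 became 1 with only the libraries compared, 2 without the muscle-rich libraries and 2 with the Y-linked covariate, and 1 to 4 with each library left out. The interaction gave 0 members in every fit. The cause of these changes was not tested, and each smaller fit also has fewer libraries.

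Of all genes, 2795 called in the bridge became 711 without the muscle-rich and 1779 without the neutrophil-rich libraries (1612 to 2947 with each library left out), and 1562 in the distal stump became 889 with only the libraries compared (880 to 1561). Over both regions 4013 became 2286 without the muscle-rich libraries and 2505 with the Y-linked covariate (3174 to 3694). For region in CTL 1891 became 869 with only the libraries compared and 506 without the muscle-rich libraries (681 to 2062), and for region in Nf1 KO 2914 became 1862 without the neutrophil-rich libraries (1594 to 2892). The interaction called 0 genes with edgeR and 447 with DESeq2, and 2534 had an unadjusted p under 0.05 with edgeR.

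Samples share replicate numbers in the labels, and whether these mark shared mice is not stated. Deviations of same-numbered samples correlated by −0.064 to 0.139, and the numbers were not read as pairs. Y-linked sums ranked alike in both regions of each genotype. Nf1 KO replicates 1 to 3 had 147, 41.2 and 123 CPM in the bridge and 106, 39.8 and 71.1 CPM in the distal stump. CTL replicates had 216, 102 and 195 CPM, and 197, 116 and 120 CPM. Mice shared between regions can therefore not be excluded, whereas the main fit treats all libraries as independent. With the replicate block, members called were 9 in the bridge, 4 in the distal stump, 10 over both regions and 2 between the regions in each genotype, and genes called were 2464, 1284, 3584, 1497 and 2463. Over both regions and for the interaction all 12 libraries are compared, so no smaller fit applies. No called member or named pathway gene changed direction in any of these fits. Depth limits mainly Ksr2, which rested on 9 to 20 counts per library.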

Other observations

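The lists around the core pathway were also compared between the regions. Of all genes tested, 15.2% were called between the regions in Nf1 KO and 9.85% in CTL, and several of the list counts below lie near those shares. Of 18 RAF-complex and scaffold partners, 1 was higher and 4 lower in the bridge than in the distal stump in Nf1 KO, and 0 higher and 2 lower in CTL. Of 20 receptor tyrosine kinases, 2 were higher and 5 lower in the bridge in Nf1 KO, and 3 higher and 3 lower in CTL. The 11 feedback inhibitors gave 1 higher and 1 lower in Nf1 KO and 0 called in CTL, and the 12 ERK-induced transcripts gave 2 higher and 3 lower in Nf1 KO and 1 higher and 2 lower in CTL.

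Some family shares of summed level per kilobase, which restate levels and were not tested, are given here. Frs2 made up 47.3% ± 6.2 of the pair Frs2 and Frs3 in the Nf1 KO bridge and 33.4% ± 2.4 in the CTL bridge, and 39.1% ± 3.9 in the Nf1 KO distal stump and 41.2% ± 5.7 in the CTL distal stump (SD, n = 3 each). Rasgrf1 made up 38.5% ± 0.92 of the pair Rasgrf1 and Rasgrf2 in the Nf1 KO distal stump and 29.5% ± 2.3 in the CTL distal stump. Rps6ka1 made up 70.9% ± 5.8 of the 3 RSK genes listed here in the Nf1 KO distal stump and 61.4% ± 1.9 in the CTL distal stump. Map2k1 lay between 54.3 and 58.4% of the MEK pair, and Araf between 81.4 and 85.5% of the pair Araf and Braf, over all 12 libraries.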
